A study of Mus musculus with 12 samples.

Results

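The genes described are Clec2i, Kcnj2, Pdzd4, P2ry14, L1cam, Il18rap, Serpina3f, Klrb1f, Sgms2 and Dio2, a set of 10 among the 24016 genes of the deposited tables. They were picked by symbol for being high in mouse blood progenitors with an Smc3 lesion, leaving out lineage genes of the same rankings such as the mast cell and basophil genes Cpa3 and Cd200r3. 6 of them (Clec2i, Kcnj2, Pdzd4, P2ry14, L1cam and Il18rap) stood among the 10 largest rises in Smc3 cells over WT cells. The other 4 (Serpina3f, Klrb1f, Sgms2 and Dio2) held the first 4 places of the difference between Double and Npm1 cells. Both rankings leave out predicted-gene names and genes whose adjusted p is not under 0.05, and the first also leaves out means under 50. These 2 contrasts chose the genes, so their values, counts past a threshold included, are given below as a description and not as tests. For the 4 genes chosen by the difference, the same holds for the Double and Npm1 folds it is made of. In the first ranking, Il18rap was the lowest member at a log2 fold change of 1.16, and Cyp11a1 (1.15) and Serpine2 (1.13) lay just outside, in the authors' deposited table. In the second, Dio2 was the lowest member at 1.53, and Ak4 (1.45) and Olr1 (1.44) lay just outside, by differences of the authors' deposited fold changes.

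Smc3 is a core subunit of cohesin, a ring-shaped complex that pairs sister chromatids and extrudes chromatin loops between CTCF sites, and cohesin lesions are found in myeloid leukaemia. Npm1 encodes nucleophosmin, a nucleolar protein whose mutation is common in acute myeloid leukaemia and often occurs beside a cohesin lesion. The 10 genes belong to no single pathway: a ligand and its natural killer (NK) cell receptor, a cytokine receptor chain, a nucleotide-sugar receptor, an adhesion molecule, an ion channel, a PDZ-domain gene, a protease inhibitor and enzymes of sphingomyelin and thyroid hormone.

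Poly(A) RNA sequencing compared haematopoietic stem and progenitor cells (HSPCs), enriched by lineage depletion from C57BL/6 animals, in 4 groups of 3 libraries, with genotypes named Smc3, Npm1, Double and WT; Double is taken to carry both lesions, which the labels do not spell out. Every group, WT included, had received 7 injections of polyinosinic:polycytidylic acid (pIpC, a synthetic double-stranded RNA that raises interferon and is often used to switch on an inducible Cre) at 4 to 6 weeks of age, and cells were taken 4 to 6 weeks afterwards. The sources used here state no allele, no Cre driver, no sex, nor whether each library is a different animal, so p-values measure the spread between these libraries, which may be technical. The authors' tables hold 1 comparison of each genotype with the same 3 WT libraries and no value per library, so values are given per group and the 3 comparisons share their WT side.

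Depth differed with genotype: libraries held about 19820000 to 51570000 reads in Smc3, 27830000 to 35370000 in Double and 10550000 to 33090000 in Npm1, against 10240000 to 22030000 in WT, as size factor times the summed means. Summed means of 4 Y-linked genes were 2022 normalized counts in the Smc3 comparison and 2280 in the Double comparison, against 3.80 in the Npm1 comparison, so male libraries were present in the Smc3 and Double groups and at most a trace in Npm1 and WT. The mean of Xist, expressed from the inactive X of females, was 25443 normalized counts in the Smc3 comparison and 26820 in the Double comparison, against 37680 in the Npm1 comparison on the same scale, so female libraries may remain in the Smc3 and Double groups. How many libraries of each sex they hold is not known, and an effect of sex and one of the Smc3 lesion cannot be told apart in these tables. The Smc3 transcript itself had a log2 fold change over WT of -0.02 ± 0.11 in Smc3 cells and -0.03 ± 0.11 in Double cells in the authors' deposited tables, which checks no label, since the allele is not stated. All 11 HSPC markers examined were detected, Kit with a mean of 8121 normalized counts and Cd34 with 4321 in the authors' deposited Smc3 comparison. In bulk RNA, fewer cells of a type and less RNA per cell cannot be told apart.

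All 10 genes had a fold change above 0 in both genotypes that carry the Smc3 lesion, and Serpina3f in Smc3 cells lay within its error of 0. The median log2 fold change of the 10 was 1.16 in Smc3 cells and 1.02 in Double cells, against -0.13 in Npm1 cells, in the authors' deposited tables, where ± is the authors' standard error over 3 libraries against 3. Over all genes tested the medians were -0.00, 0.01 and 0.01 in the same order. In Smc3 cells 9 of the 10 had an authors' adjusted p under 0.05, where 7.94% of all genes tested were called higher and 6.6% lower; the choice of the genes used this contrast, so nothing is read from the count. In Double cells 8 of the 10 were called higher than WT by the authors' DESeq2 Wald test (background 8.87% higher and 9.82% lower), and Il18rap and Serpina3f were not. In Npm1 cells none of the 10 was called higher by the same test (background 9.1%) and 1, Serpina3f, was called lower (background 9%), while 4 had an unadjusted p under 0.05, all with negative values. The Npm1 and Double comparisons share libraries with the contrasts that chose the genes, and their difference is how 4 of the genes, Serpina3f among them, were chosen, so for those 4 no p is given below.

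**Figure D1:**
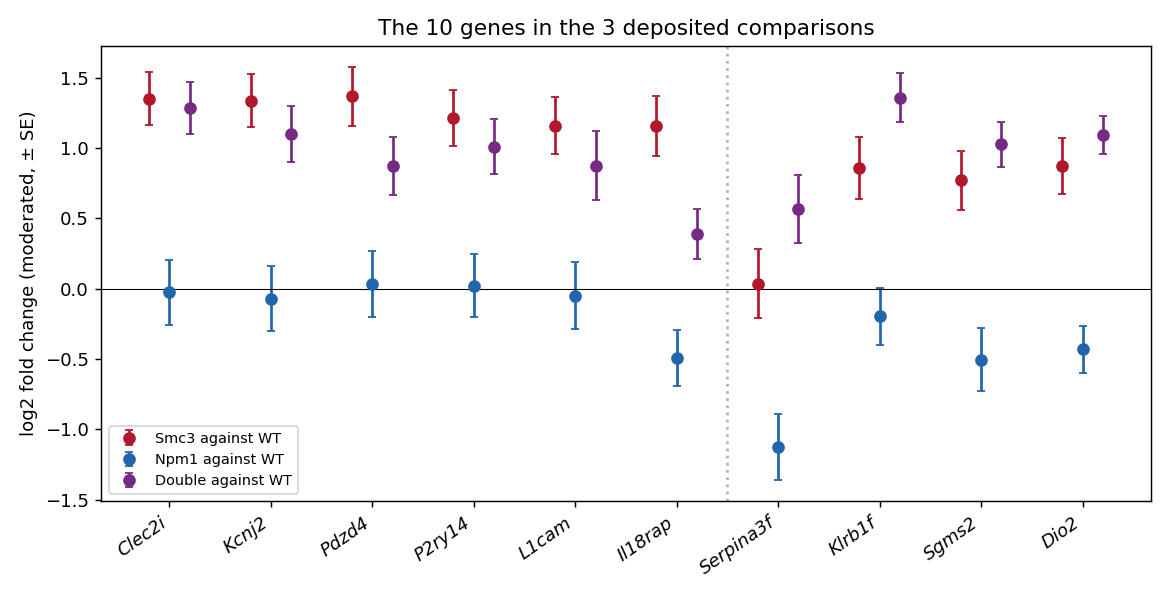
Log2 fold change against WT (vertical axis, moderated, authors' standard error as bars, 3 libraries against 3) of the 10 genes in Smc3, Npm1 and Double cells. Left of the dotted line are the 6 genes chosen by Smc3 against WT, right of it the 4 chosen by Double minus Npm1; Npm1 values lie between -1.13 and 0.03, below both other genotypes in each gene.

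The group levels behind these folds were read back from each deposited mean and fold change after the 3 tables were put on the scale of the Smc3 comparison. They are normalized counts, not per length, so they compare genotypes within a gene and not genes with each other. WT was read 3 times, once from each table. The spread of those readings does not give the full effect of moderation on a level. Each reading uses a moderated fold, and the scaling between tables enters the spread too.

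Clec2i and Klrb1f are a ligand and receptor pair: Clec2i encodes the C-type lectin-like protein Clr-g, which is bound by the NK cell receptor Nkrp1f, the product of Klrb1f. Both lie in the NK gene complex on chromosome 6. The level of Clec2i was 269 normalized counts in Smc3 cells, 244 in Double cells and 89.8 in Npm1 cells, against 91.3 to 105 in WT cells. Smc3 and Double cells stood apart from the WT readings and Npm1 cells did not differ from WT beyond the error of the fold. Its log2 fold change over WT in the authors' deposited tables was 1.35 ± 0.19 in Smc3 cells, 1.29 ± 0.18 in Double cells (adjusted p = 4.28e-10) and -0.02 ± 0.23 in Npm1 cells (adjusted p = 0.955). The 4 transcripts listed for Clec2i gave nearly the same values, 1.34 to 1.36 in Smc3 cells and 1.29 to 1.31 in Double cells in the authors' deposited tables.

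The receptor Klrb1f reached 349 normalized counts in Smc3 cells, 465 in Double cells and 142 in Npm1 cells, against 163 to 192 in WT cells. Double cells held the highest level, unlike Clec2i. Its log2 fold change in the authors' deposited tables was 0.86 ± 0.22 in Smc3 cells, 1.36 ± 0.17 in Double cells and -0.20 ± 0.20 in Npm1 cells. Between the Clec2i and Klrb1f loci the RefSeq annotation places 2 protein-coding genes, Clec2f and Clec2g. Stretches of the promoters of both genes are shown because these neighbours are both high with the Smc3 lesion and both hold a GATA motif (AGATAA or TGATAA, either strand), the sequence bound by GATA factors of blood progenitors. The sequences come from RefSeq on GRCm38.p6, 5′ to 3′ on the gene's strand, and capitals mark the motif.
Clec2i, chr6:128887477-128887556, plus strand, 110 to 31 bases before the start: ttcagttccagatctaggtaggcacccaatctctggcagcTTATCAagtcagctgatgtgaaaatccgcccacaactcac
Klrb1f, chr6:129045721-129045800, plus strand, 180 to 101 bases before the start: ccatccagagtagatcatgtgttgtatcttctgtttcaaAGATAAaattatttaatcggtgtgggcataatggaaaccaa

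Several genes around this pair were called too. Of the 10 nearest genes of Clec2i, 5 of 8 tested were called higher in Smc3 cells, 5 of 10 in Double cells and 0 of 7 in Npm1 cells by the authors' adjusted p, counting Klrb1f. Over all genes tested, 7.94%, 8.87% and 9.1% were called higher in the same order. Over the neighbours of all 10 members, members left out, these were 11 of 77, 12 of 83 and 5 of 73. Klrb1b, an inhibitory NK receptor gene, had a log2 fold change of 0.88 ± 0.24 in Smc3 cells (adjusted p = 0.00556), 0.64 ± 0.26 in Double cells (adjusted p = 0.0688) and -0.34 ± 0.24 in Npm1 cells (adjusted p = 0.305) in the authors' deposited tables. Klrb1c, which encodes the NK1.1 antigen, rose by 0.79 ± 0.24 in Smc3 cells (adjusted p = 0.0123) and by 0.76 ± 0.26 in Double cells (adjusted p = 0.0265) in the authors' deposited tables. BC035044 rose by 0.75 ± 0.18 in Smc3 cells and 0.67 ± 0.15 in Double cells in the authors' deposited tables (adjusted p = 0.00151 and 0.000172), but its locus overlaps Clec2i, and without strand reads of overlapping genes cannot be told apart. On the far side of Klrb1f, Clec12a, an inhibitory myeloid lectin gene, rose by 0.77 ± 0.19 in Smc3 cells (adjusted p = 0.00186) and 0.80 ± 0.15 in Double cells (adjusted p = 5.73e-06), and had -0.45 ± 0.19 in Npm1 cells (adjusted p = 0.0741), in the authors' deposited tables. Clec2d, the Clr-b ligand of Klrb1b, rose in Smc3 cells (0.47 ± 0.14, adjusted p = 0.0142), and had 0.23 ± 0.14 in Double cells (adjusted p = 0.288), in the authors' deposited tables. Not every neighbour moved this way: Clec2f had -0.05 ± 0.24 in Smc3 cells (adjusted p = 0.908), 0.74 ± 0.26 in Double cells (adjusted p = 0.0296) and 0.59 ± 0.24 in Npm1 cells (adjusted p = 0.0647) in the authors' deposited tables. Of 6 other Clec2 genes in the tables, 1 of 3 tested was called higher in Smc3 cells, 1 of 3 in Double cells and 0 of 2 in Npm1 cells. Among NK lectin-like receptor genes other than Klrb1f, 4 of 5 tested were called higher in Smc3 cells, 1 of 6 in Double cells and 0 of 4 in Npm1 cells. Their median log2 fold change was 0.77 in Smc3 cells, 0.62 in Double cells and -0.07 in Npm1 cells in the authors' deposited tables. Genes of this lectin family are close in sequence, and reads shared between them would be counted as the authors' counter, not named in the sources used here, chose.

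**Figure D2:**
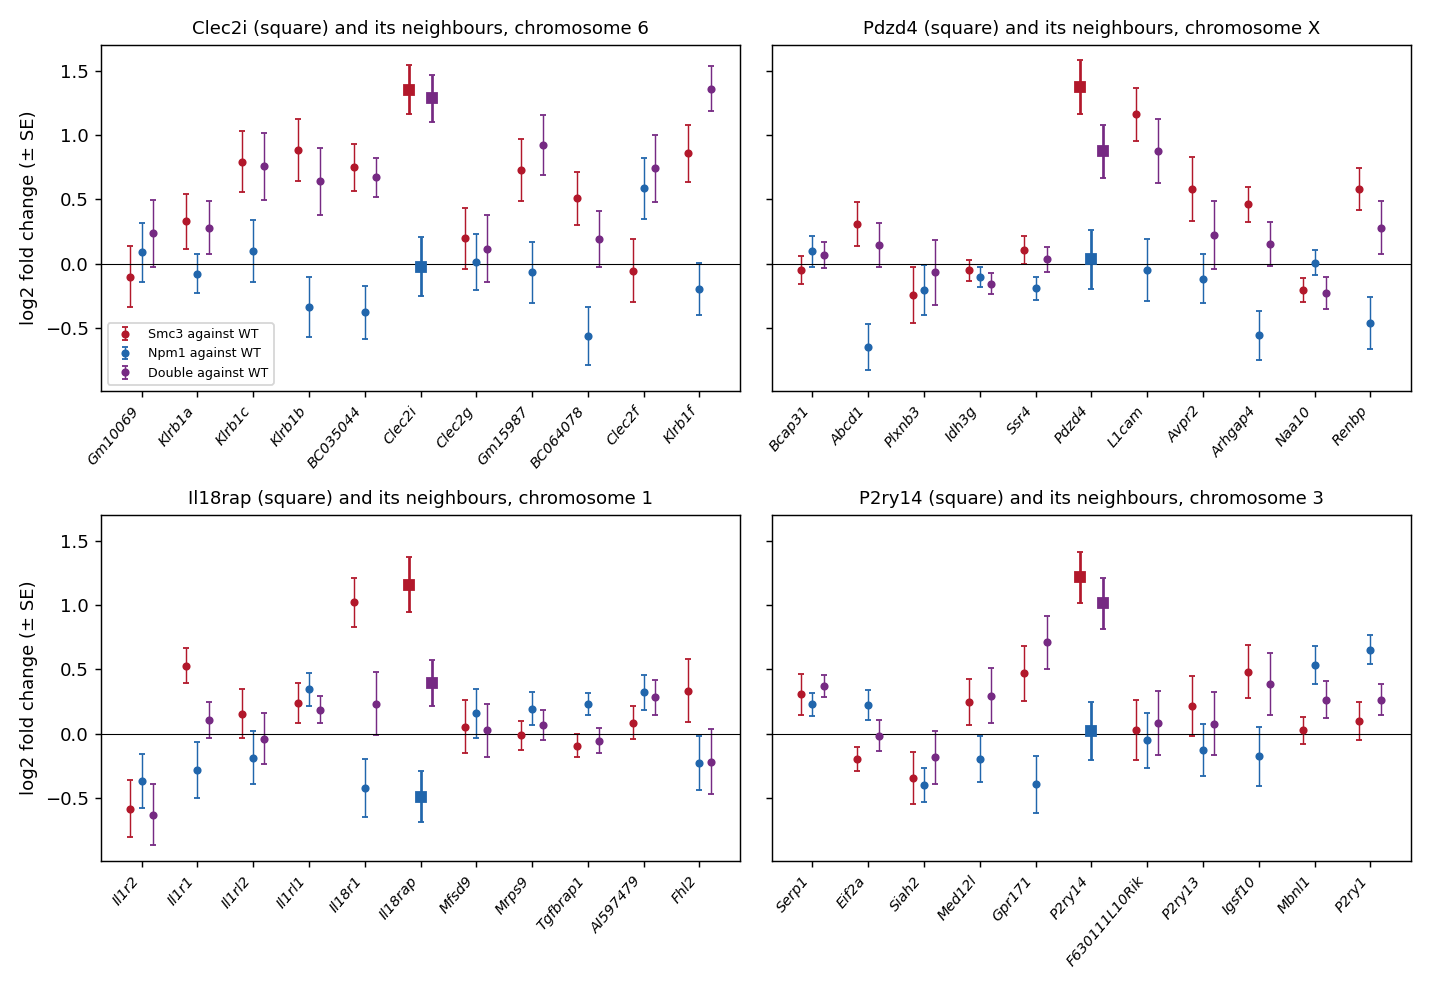
Log2 fold change against WT (vertical axes, authors' standard error as bars) of Clec2i, Pdzd4, Il18rap and P2ry14 (squares) and the 5 tested genes on each side in chromosome order (circles), in Smc3, Npm1 and Double cells. Around Clec2i, Klrb1b and Klrb1c lie between 0.64 and 0.88 in both Smc3 and Double cells, while around P2ry14 none was called in Smc3 cells.

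Markers of other cells were counted too. Of 17 NK and T cell markers tested, which include Klrb1c, Klrd1 and Klrk1 of the NK receptor list, 5 were called higher in Smc3 cells and 2 of 17 in Double cells, and 2 of 16 were called lower in Npm1 cells. Over all genes tested, 7.94% and 8.87% were called higher and 9% lower in the same order. The Double and Npm1 counts were near those shares. The marker means summed to 2422 normalized counts in the Smc3 comparison and 2426 in the Double comparison, against 1594 in the Npm1 comparison, on 1 scale, each mean averaging the genotype with WT. Nkg7 alone had a mean of 1217 in the Smc3 comparison, so the sums rest largely on that gene. No marker of the list was at 0. The part of NK or T cells in the Clec2i and Klrb1f values was not tested.

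Il18rap encodes the accessory chain of the interleukin-18 receptor, which signals together with the binding chain Il18r1. Its level was 1259 normalized counts in Smc3 cells, 628 in Double cells and 321 in Npm1 cells, against 452 to 564 in WT cells. Here Smc3 cells stood far above the others, and by these readings Double cells were above WT and Npm1 cells below. The scaled mean of the Double comparison, 553, lay below the highest WT reading, so the place of Double cells is not settled. The log2 fold change in the authors' deposited tables was 1.16 ± 0.21 in Smc3 cells, 0.39 ± 0.18 in Double cells (adjusted p = 0.111) and -0.49 ± 0.20 in Npm1 cells (adjusted p = 0.0624). The neighbouring Il18r1 showed the same order: it rose by 1.02 ± 0.19 in Smc3 cells (adjusted p = 2.33e-05), and had 0.23 ± 0.24 in Double cells (adjusted p = 0.564) and -0.42 ± 0.23 in Npm1 cells (adjusted p = 0.167) in the authors' deposited tables. Il1r1, the signalling receptor of interleukin-1 in the same cluster on chromosome 1, rose by 0.53 ± 0.13 in Smc3 cells (adjusted p = 0.0025) and had 0.11 ± 0.14 in Double cells (adjusted p = 0.669) in the authors' deposited tables.

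Of 14 tested genes of interleukin-1 and interleukin-18 reception other than Il18rap, 4 were called higher in Smc3 cells, 3 in Double cells and 1 in Npm1 cells, and none lower, with a median log2 fold change of 0.23 in Smc3 cells, 0.16 in Double cells and -0.08 in Npm1 cells. Besides Il18r1 and Il1r1 these were the negative regulators Irak3, at 0.64 ± 0.13 in Smc3 cells and 0.38 ± 0.14 in Double cells (adjusted p = 0.000203 and 0.0395), and Sigirr, at 0.59 ± 0.13 and 0.46 ± 0.17 in the same order (adjusted p = 0.000418 and 0.0436), in the authors' deposited tables. Beside this gene, 9 of 11 basophil and mast cell markers were called higher in Smc3 cells and 2 of 11 in Double cells, and 7 of 10 were called lower in Npm1 cells. The shares over all genes tested were 7.94% and 8.87% higher and 9% lower in the same order. The marker means summed to 40542 normalized counts in the Smc3 comparison and 27815 in the Double comparison, against 21672 in the Npm1 comparison. The part of those cells in the Il18rap values was not tested. An 80-base stretch of the Il18rap promoter is shown for its GATA motif in capitals, which reads on the gene's own strand.
Il18rap, chr1:40515112-40515191, plus strand, 250 to 171 bases before the start: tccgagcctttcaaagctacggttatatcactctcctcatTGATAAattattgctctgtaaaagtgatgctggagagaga

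P2ry14 encodes a G protein-coupled receptor for UDP-glucose and other UDP-sugars. Its level was 245 normalized counts in Smc3 cells, 203 in Double cells and 93.2 in Npm1 cells, against 91.9 to 106 in WT cells. Smc3 and Double cells stood at about the same height above WT, and Npm1 cells lay within the WT readings. In the authors' deposited tables the log2 fold change was 1.22 ± 0.20 in Smc3 cells, 1.01 ± 0.20 in Double cells (adjusted p = 1.34e-05) and 0.02 ± 0.22 in Npm1 cells (adjusted p = 0.961). Its 8 listed transcripts spanned 1.21 to 1.25 in Smc3 cells and 1.01 to 1.06 in Double cells in the authors' deposited tables. P2ry14 overlaps the locus of Med12l, so reads of the pair cannot be told apart without strand.

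Of the neighbours of P2ry14, 0 of 9 tested were called in Smc3 cells, 2 of 10 were called higher in Double cells, and in Npm1 cells 2 of 8 were called higher and 1 lower, beside backgrounds of 7.94%, 8.87% and 9.1% called higher. One of these was the adjacent receptor gene Gpr171, with 0.71 ± 0.20 in Double cells (adjusted p = 0.00578) and 0.47 ± 0.21 in Smc3 cells (adjusted p = 0.114) in the authors' deposited tables. P2ry1, an ADP receptor gene of the same cluster, instead rose by 0.65 ± 0.12 in Npm1 cells (adjusted p = 2.45e-06) and had 0.10 ± 0.15 in Smc3 cells (adjusted p = 0.708) in the authors' deposited tables. Of the P2Y family list, 2 of 6 tested genes were called higher in Smc3 cells, 2 of 7 in Double cells, and in Npm1 cells 1 of 5 higher and 1 lower; Gpr34, a lysophosphatidylserine receptor gene, rose by 1.11 ± 0.24 in Smc3 cells (adjusted p = 0.000381) and had 0.41 ± 0.25 in Double cells (adjusted p = 0.271), in the authors' deposited tables. The P2ry14 promoter stretch below carries its GATA motif on the opposite strand, in capitals.
P2ry14, chr3:59153523-59153602, minus strand, 110 to 31 bases before the start: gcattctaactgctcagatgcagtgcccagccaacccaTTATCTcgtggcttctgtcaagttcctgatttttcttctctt

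L1cam and Pdzd4 are next to each other on the X chromosome with no other gene between them. L1cam encodes a cell adhesion molecule of the immunoglobulin superfamily, and Pdzd4 encodes a protein with a PDZ domain, a module that binds the tails of other proteins. The level of L1cam was 472 normalized counts in Smc3 cells, 404 in Double cells and 173 in Npm1 cells, against 179 to 220.2 in WT cells. The level of Pdzd4 was 347 normalized counts in Smc3 cells, 216 in Double cells and 112 in Npm1 cells, against 109.7 to 134 in WT cells. Both genes had the same order of genotypes, and for Pdzd4 the step between Smc3 and Double cells was wider.

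The log2 fold change of L1cam in the authors' deposited tables was 1.16 ± 0.20 in Smc3 cells, 0.88 ± 0.25 in Double cells (adjusted p = 0.00465) and -0.05 ± 0.24 in Npm1 cells (adjusted p = 0.907). That of Pdzd4 was 1.37 ± 0.21 in Smc3 cells, 0.87 ± 0.21 in Double cells (adjusted p = 0.000508) and 0.03 ± 0.23 in Npm1 cells (adjusted p = 0.941) in the authors' deposited tables. The neighbours Arhgap4, at 0.46 ± 0.13 (adjusted p = 0.00948), and Renbp, at 0.58 ± 0.16 (adjusted p = 0.00634), rose in Smc3 cells too, and had 0.15 ± 0.17 and 0.28 ± 0.21 in Double cells (adjusted p = 0.605 and 0.378), in the authors' deposited tables. Since the 2 genes are X-linked and the male libraries follow the Smc3 lesion, the rest of the X chromosome was counted: 9.14% of 394 tested X-linked genes were called higher in Smc3 cells, against 7.95% of autosomal genes, with a median log2 fold change of 0.06. In Double cells 12.6% of 413 X-linked genes were called higher, against 8.79% of autosomal genes, with a median of 0.10. In Npm1 cells, with at most a trace of Y-linked reads, 9.45% of 381 X-linked genes were called higher, with a median of 0.05. The autosomal share there was 9%. Autosomal medians were -0.01 in Smc3 cells, 0.01 in Double cells and 0.01 in Npm1 cells. The part of sex in the values of L1cam and Pdzd4 was not tested.

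Of 7 tested genes of related adhesion molecules, ankyrins and integrins, 3 were called higher and 1 lower in Smc3 cells, 2 of 8 higher and 1 lower in Double cells, and 2 of 7 lower in Npm1 cells. Itgav, which encodes an integrin chain that binds L1cam, rose by 0.66 ± 0.13 in Smc3 cells (adjusted p = 9.64e-05) and 0.62 ± 0.14 in Double cells (adjusted p = 0.00028), and fell by 0.41 on the log2 scale in Npm1 cells (adjusted p = 0.0325), in the authors' deposited tables. Its partner chain Itgb3 rose in Smc3 cells (0.82 ± 0.12, adjusted p = 2.03e-08), and had 0.57 ± 0.22 in Double cells (adjusted p = 0.0506), in the authors' deposited tables. The list of other PDZ genes had 0 of 7 called higher and 1 lower, Pdzd2, in Smc3 cells, 0 of 7 called in Double cells and 1 of 6 lower in Npm1 cells. For Pdzd4 a 100-base promoter stretch is shown with a GATA motif and, further on, the CTCF core letters AGGGGGC in capitals, both on the opposite strand. CTCF is the factor at which cohesin loops stop, and a match in letters is not a measured site.
Pdzd4, chrX:73825040-73825139, minus strand, 170 to 71 bases before the start: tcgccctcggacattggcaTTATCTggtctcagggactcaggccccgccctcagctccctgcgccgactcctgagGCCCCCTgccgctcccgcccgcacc

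Kcnj2 encodes Kir2.1, an inwardly rectifying potassium channel that sets the resting membrane potential. Its level was 244 normalized counts in Smc3 cells, 199 in Double cells and 79.1 in Npm1 cells, against 83.03 to 96.3 in WT cells. Smc3 and Double cells stood above the WT readings, and Npm1 cells did not differ from WT beyond the error of the fold. Its log2 fold change in the authors' deposited tables was 1.34 ± 0.19 in Smc3 cells, 1.10 ± 0.20 in Double cells (adjusted p = 1.70e-06) and -0.07 ± 0.23 in Npm1 cells (adjusted p = 0.864). Of the 14 other Kir channel genes, 2 were tested in Smc3 cells, 3 in Double cells and 1 in Npm1 cells, and none was called; Kcnj3 and Kcnj4 were listed at 0 in every table. Of its neighbours, 1 of 9 tested was called higher in Smc3 cells, 2 of 10 higher and 2 lower in Double cells, and 1 of 8 lower in Npm1 cells. The lipid transporter gene Abca8b rose by 0.83 ± 0.24 in Smc3 cells (adjusted p = 0.00785) and 0.65 ± 0.23 in Double cells (adjusted p = 0.0283), and Abca9 next to it had 0.48 ± 0.24 in Smc3 cells (adjusted p = 0.156) and rose by 0.87 ± 0.22 in Double cells (adjusted p = 0.00143), in the authors' deposited tables. Its promoter stretch, in a part rich in G and C, holds an E-box (CACGTG, a site of Myc and related factors) and a GATA motif on the opposite strand, both in capitals.
Kcnj2, chr11:111066054-111066153, plus strand, 110 to 11 bases before the start: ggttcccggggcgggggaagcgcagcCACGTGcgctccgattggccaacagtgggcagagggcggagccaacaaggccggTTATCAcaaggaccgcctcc

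Dio2 encodes type 2 deiodinase, the enzyme that turns the prohormone thyroxine into active triiodothyronine inside cells. Its level was 726 normalized counts in Smc3 cells, 793 in Double cells and 261 in Npm1 cells, against 352 to 397 in WT cells. Smc3 and Double cells were close to each other and Npm1 cells stood below the WT readings. The log2 fold change in the authors' deposited tables was 0.87 ± 0.20 in Smc3 cells, 1.10 ± 0.14 in Double cells and -0.43 ± 0.17 in Npm1 cells. Of the other thyroid hormone genes, 0 of 13 tested were called higher and 2 lower in Smc3 cells, 0 of 14 higher and 2 lower in Double cells, and 0 of 11 higher and 4 lower in Npm1 cells. The receptor gene Thra fell by 0.66 on the log2 scale in Double cells (adjusted p = 3.86e-07) and by 0.40 in Npm1 cells (adjusted p = 0.00406), and had -0.25 ± 0.16 in Smc3 cells (adjusted p = 0.266), in the authors' deposited tables. Slc16a10, a transporter of thyroid hormone and aromatic amino acids, fell by 0.44 in Smc3 cells (adjusted p = 0.000359) and by 0.55 in Double cells (adjusted p = 2.47e-05) on the log2 scale in the authors' deposited tables. Dio3, the enzyme that inactivates the hormone, was listed at 0 in every table. Dio2 was the only member whose promoter windows held the cyclic AMP response element TGACGTCA, in capitals below; 2.03% of all genes with a window hold it.
Dio2, chr12:90739089-90739168, minus strand, 130 to 51 bases before the start: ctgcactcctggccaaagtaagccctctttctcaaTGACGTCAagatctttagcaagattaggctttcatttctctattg

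Sgms2 encodes the sphingomyelin synthase of the plasma membrane, which makes sphingomyelin from ceramide. Its level was 347 normalized counts in Smc3 cells, 391 in Double cells and 121 in Npm1 cells, against 172 to 204 in WT cells. The order of the genotypes was that of Dio2, with Npm1 cells again below the WT readings. The log2 fold change in the authors' deposited tables was 0.77 ± 0.21 in Smc3 cells, 1.03 ± 0.16 in Double cells and -0.50 ± 0.22 in Npm1 cells. Of 21 tested genes of ceramide and sphingomyelin metabolism, 6 were called higher and 0 lower in Smc3 cells, 6 higher and 1 lower in Double cells, and none in Npm1 cells. Their median log2 fold change was 0.15 in Smc3 cells, 0.21 in Double cells and 0.02 in Npm1 cells. Cers5, a ceramide synthase gene, rose by 0.70 ± 0.16 in Smc3 cells (adjusted p = 0.000666) and 0.70 ± 0.16 in Double cells (adjusted p = 0.000426), and had -0.26 ± 0.16 in Npm1 cells (adjusted p = 0.221), in the authors' deposited tables. Smpd2, a sphingomyelinase gene, rose by 0.62 ± 0.18 in Smc3 cells (adjusted p = 0.00776) and had 0.39 ± 0.20 in Double cells (adjusted p = 0.175), in the authors' deposited tables. The sphingosine kinase gene Sphk1 fell by 0.97 on the log2 scale in Double cells (adjusted p = 1.37e-06) and had -0.44 ± 0.19 in Smc3 cells (adjusted p = 0.104), in the authors' deposited tables. 0 of 10 tested neighbours of Sgms2 were called in Smc3 cells and 1 of 10 in Double cells.

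Serpina3f, a serine protease inhibitor of the expanded mouse Serpina3 cluster, had another pattern. Its level was 125 normalized counts in Smc3 cells, 199 in Double cells and 46.3 in Npm1 cells, against 101 to 134 in WT cells. Smc3 cells lay within the WT readings, Double cells above them and Npm1 cells far below. The log2 fold change in the authors' deposited tables was 0.04 ± 0.25 in Smc3 cells, 0.57 ± 0.24 in Double cells and -1.13 ± 0.24 in Npm1 cells. It is in the set through the distance between Double and Npm1 cells, and a rise with the Smc3 lesion was not seen for it in Smc3 cells against WT. Its standard error in Smc3 cells was at the highest value of that table, so the fold there is poorly determined. In Npm1 cells the errors of Serpina3f, L1cam, Pdzd4, Kcnj2 and Clec2i, 0.231 to 0.238, were also near the highest, 0.238. An Npm1 fold near 0 in L1cam, Pdzd4, Kcnj2 and Clec2i does not show equality with WT. The only other cluster gene tested, Serpina3g, rose by 0.57 ± 0.14 in Double cells (adjusted p = 0.0011), and had 0.31 ± 0.17 in Smc3 cells (adjusted p = 0.206) and -0.20 ± 0.12 in Npm1 cells (adjusted p = 0.229), in the authors' deposited tables. Genes of this cluster are close copies of each other, and how their reads were split is not given in the sources used here. Of the 10 neighbours of Serpina3f, all tested, 0 were called higher and 4 lower in Smc3 cells. In Double cells 2 were called higher and 4 lower, and in Npm1 cells 1 higher and 3 lower.

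**Figure D3:**
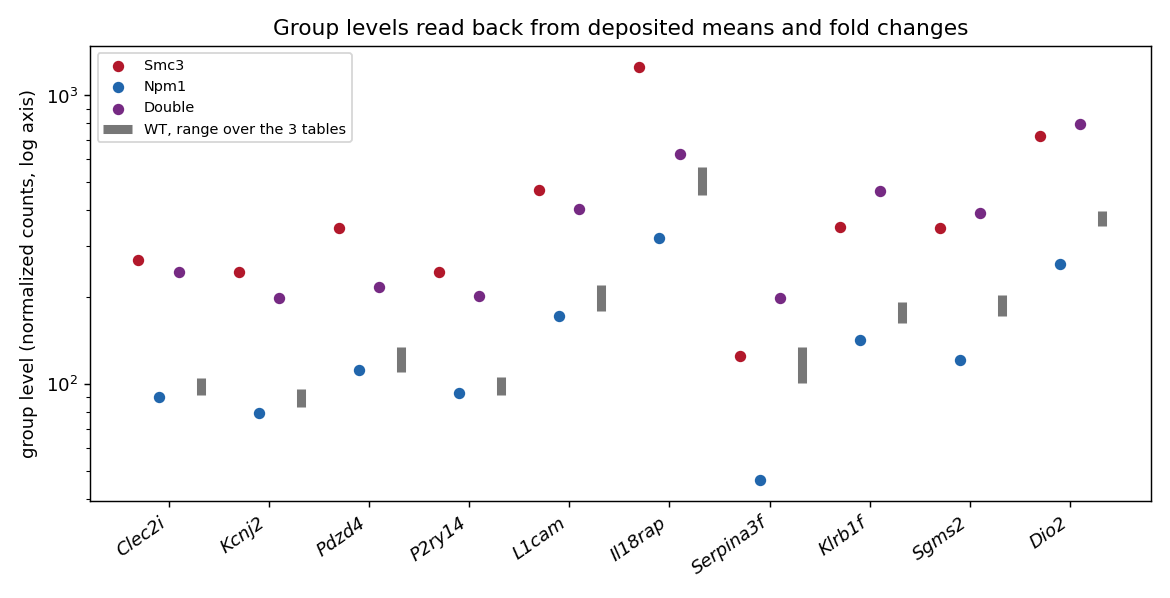
Group levels in normalized counts on the scale of the Smc3 comparison (vertical log axis) of the 10 genes, as points for Smc3, Npm1 and Double cells and as a grey bar for the range of the 3 WT readings. Npm1 points lie below Smc3 and Double points in all 10 genes, and the Smc3 point of Serpina3f is the only Smc3 point within its WT bar.

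The difference between Double and Npm1 cells, both with the Npm1 lesion, was above 0 in all 10 genes, with a median of 1.24 on the log2 scale against -0.00 over all genes. It ran from 0.84 ± 0.31 for Pdzd4 and 0.88 ± 0.27 for Il18rap to 1.56 ± 0.27 for Klrb1f and 1.70 ± 0.34 for Serpina3f. The difference had an adjusted p under 0.05 in 8 of the 10, where 4.09% of all genes were called higher and 2.89% lower. With the shared WT variance removed it was under 0.05 in all 10, where 20.7% of all genes were called in either direction. This contrast chose 4 of the genes and nothing is read from these counts. In each of the 10 the Double level, read with the moderated fold of its own comparison, lay above every WT reading. For Il18rap this is not settled, since the scaled mean of the Double comparison, 553, lay below the highest WT reading, 564.

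A second view does not use the moderated folds. The ratio of the deposited means of 2 comparisons, after scaling by their shared WT libraries, is a floor on the ratio of the genotype means, because each mean averages the genotype with WT. For Smc3 over Npm1 the floor was at least 1.5-fold in 10 of 10 genes (background 4.82%), lowest for Serpina3f at 1.67-fold and highest for Il18rap at 2.34-fold. For Double over Npm1 it was at least 1.5-fold in 8 of 10 (background 2.65%), highest for Serpina3f at 2.24-fold and Klrb1f at 2.10-fold. Pdzd4, at 1.49-fold, and Il18rap, at 1.42-fold, lay below it, so 8 of 10 reached it in both ratios (background 2.28%). The median over all genes with means of at least 50 was 0.962 for the first ratio and 0.961 for the second. These ratios rest on the libraries that chose the genes and carry no test. For Serpina3f the levels read from moderated folds put Smc3 cells within the WT readings and Npm1 cells below them. Its fold in Smc3 cells is poorly determined, and the part of a low Npm1 level in this floor was not tested.

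**Figure D4:**
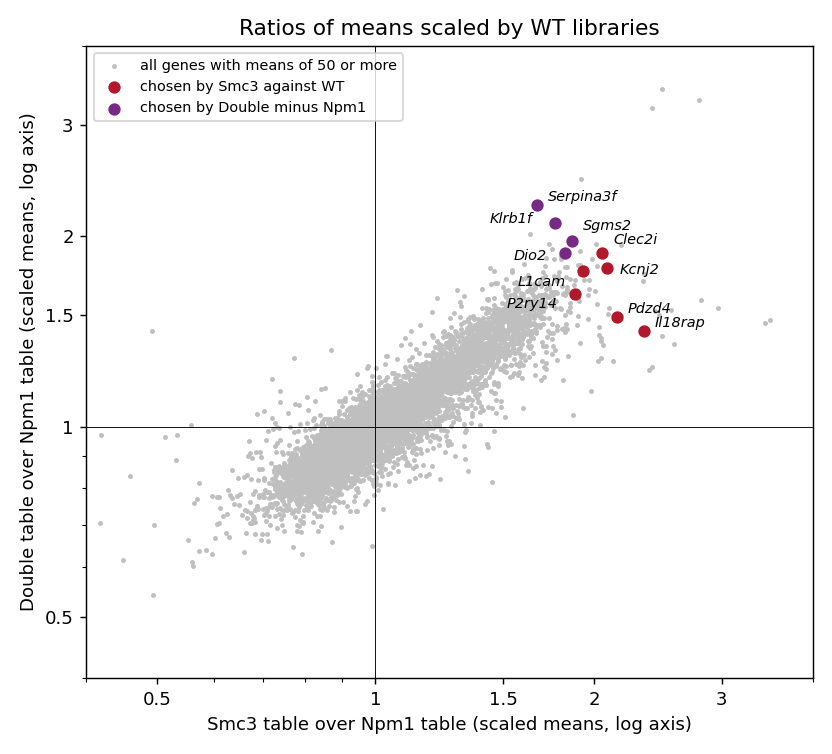
Ratio of scaled means of the Smc3 comparison over the Npm1 comparison (horizontal log axis) and of the Double comparison over the Npm1 comparison (vertical log axis) for 10718 genes in grey and the 10 genes in colour; 15 genes lie outside the axes. Both axes share the Npm1 comparison and the WT libraries, so the slope of the cloud is built in; the 10 genes lie between 1.67 and 2.34 across and between 1.42 and 2.24 up.

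Double and Smc3 cells were compared directly, a contrast that the choice of genes did not name. Its terms did enter the choice, the Smc3 fold for 6 genes and the Double fold for the other 4. By a z test of the difference of the authors' fold changes, Benjamini-Hochberg adjusted over 18729 genes, none of the 10 differed, and 1 had an unadjusted p under 0.05; over all genes 0.0801% were called higher and 0.182% lower in Double cells. That gene was Il18rap, whose difference of Double minus Smc3 was -0.77 ± 0.28 (adjusted p = 0.650), with a 95% interval of -1.31 to -0.22. The standard error counts the shared WT variance in both comparisons. With that share removed Il18rap was called lower in Double cells, 1 gene in place of 0. Over all genes that setting called 1.43% in either direction, in place of 0.262%. For Clec2i the difference was -0.07 ± 0.26, with an interval of -0.59 to 0.45, so a change of up to about that size in either direction was not excluded. For Dio2 it was 0.23 ± 0.24 with an interval of -0.25 to 0.70, and for Serpina3f 0.53 ± 0.35 with an interval of -0.14 to 1.21. The 6 genes chosen for their rise in Smc3 cells all had differences below 0, with a median of -0.26, and the 4 chosen on the Double side all had differences above 0, with a median of 0.38. The choice of the genes favours those directions. The p-values of this contrast and the call of Il18rap are therefore a description and not a test.

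**Figure D5:**
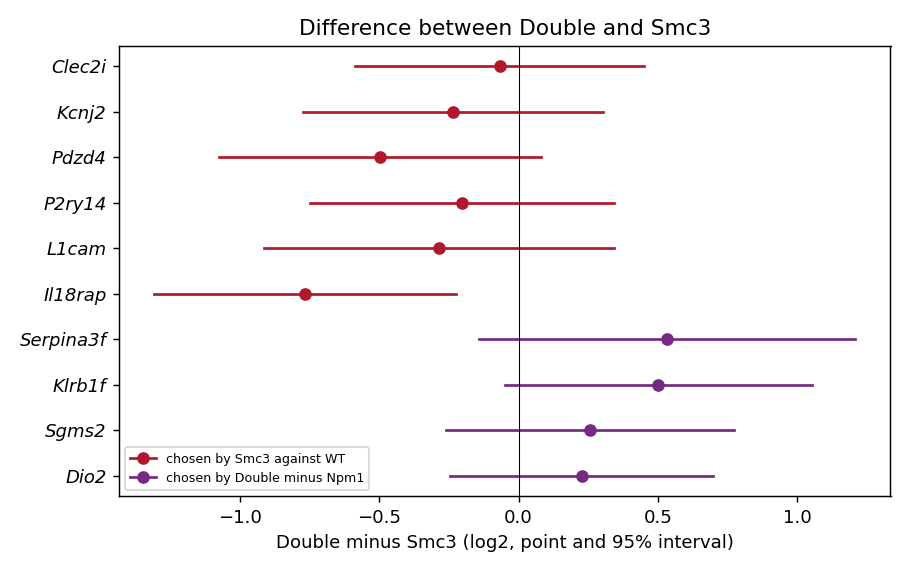
Difference of the log2 fold changes, Double minus Smc3 (horizontal axis; point and 95% interval, standard error from both comparisons), for the 10 genes, coloured by the contrast that chose them. The interval includes 0 in 9 of 10 genes, and only that of Il18rap, -1.31 to -0.22, does not.

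Promoter windows of 300 bases were available for all 10 genes, 21 windows in all. The GATA motif was in the windows of 6 of the 10 (Clec2i, Kcnj2, Pdzd4, P2ry14, Il18rap and Klrb1f), or in 9 of 21 windows, against 21% of all 27025 genes and 18.6% of all 32851 windows. P2ry14 with 4 windows and Sgms2 with 6 had more chances of a match than genes with 1. The 2 windows of Clec2i overlap almost wholly and hold the same GATA match, so the count of windows includes it in both. The motif TTCNNNGAA of STAT factors was in windows of Serpina3f, Klrb1f and Sgms2, against 9.55% of all genes. TGTGGT of RUNX factors was in those of Il18rap, Serpina3f and Sgms2 (18.9% of all genes), and GAGGAAGT of PU.1 in that of Il18rap (3.69%). TGANTCA of AP-1 was in windows of P2ry14 and Sgms2 (8.97%), CACGTG in those of Kcnj2 and Sgms2 (8.09%), and the CTCF core in that of Pdzd4 (11.9%). All motifs were searched on both strands, and the windows of L1cam held none of the 8. A match is a run of letters and not a measured site.

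The 5 genes whose fold changes in the 3 comparisons lay nearest to the median of the 10, among 10683 genes, were Serpine2, Ccl9, F630028O10Rik, Slc28a2 and Gas7, at Euclidean distances of 0.126 to 0.276 on the log2 scale over the 3 fold changes, which share WT. Serpine2, a protease inhibitor gene and the nearest, had 1.13 ± 0.17 in Smc3 cells, 1.03 ± 0.17 in Double cells and -0.01 ± 0.20 in Npm1 cells in the authors' deposited tables. Ccl9, a chemokine gene, had 0.95 ± 0.10 in Smc3 cells, 0.94 ± 0.13 in Double cells and -0.08 ± 0.21 in Npm1 cells in the authors' deposited tables. Among the 10 themselves, P2ry14 at 0.163 and L1cam at 0.166 were closest to the median, and Il18rap at 0.723 and Serpina3f at 1.57 were farthest. Monocyte and dendritic cell markers moved in the same genotypes: 5 of 12 tested were called higher in Smc3 cells and 6 of 12 in Double cells, against 0 of 12 in Npm1 cells, with summed means of 24762 normalized counts in the Smc3 comparison and 25179 in the Double comparison, against 16859 in the Npm1 comparison, and no marker at 0. Erythroid markers went the other way, with 6 of 10 called lower in Smc3 cells, 8 of 10 in Double cells and 3 of 10 in Npm1 cells, where 2 of 10 were called higher. HSPC markers differed too, with 5 of 11 called higher in Smc3 cells, 4 of 11 in Double cells and 1 of 10 lower in Npm1 cells. Cd34 rose by 0.62 ± 0.15 in Smc3 cells (adjusted p = 0.00199) and 0.43 ± 0.15 in Double cells (adjusted p = 0.0241), and fell by 0.69 on the log2 scale in Npm1 cells (adjusted p = 0.00665), in the authors' deposited tables. Megakaryocyte markers had 4 of 11 called higher in Smc3 cells, 1 of 11 higher and 1 lower in Double cells, and 2 of 11 higher and 1 lower in Npm1 cells. Stromal and endothelial markers had 2 of 9 called higher in Smc3 cells, 1 of 10 in Double cells and 1 of 8 lower in Npm1 cells, and B cell markers had 0 of 7 called in Smc3 cells, 1 of 7 lower in Double cells and 0 of 6 in Npm1 cells. The shares over all genes tested were 7.94%, 8.87% and 9.1% higher in Smc3, Double and Npm1 cells, and 6.6%, 9.82% and 9% lower. The part of a shift in cell types in the values of the 10 genes was not tested.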

How the data were processed

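RNA of 12 libraries in 4 groups was sequenced after poly(A) selection with a kit that does not mark strand, per the labels' protocols. Reads were aligned with STAR to mm9 and compared with DESeq2, per the submitters' processing notes, and no versions are given in the sources used here. Deposited by the authors were 3 tables of 33018 transcripts with, per the file headers, a mean of normalized counts (a signal scaled by library size factors), a log2 fold change with its standard error, the Wald statistic (a score), and p-values with their adjusted values. Whether folds are moderated is read from the values, which shrink toward 0 at low means, so log2 folds understate the change of such genes. Understatement is not limited to low means. Xist had folds of -0.06 ± 0.10 in Smc3 cells and -0.03 ± 0.09 in Npm1 cells. Its means on 1 scale were 25443 in the Smc3 comparison and 37680 in the Npm1 comparison. No column of another sample was left out.

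Each of 24016 symbols was represented by its transcript of highest mean, averaged over the tables, and 53 symbols turned into dates were matched by accession. The 10 genes, the gene lists and the rules for naming genes were chosen with earlier results of these data known. Named genes are the 10, up to 3 per list with the smallest p, the 5 tested neighbours on each side, and the 5 genes nearest to the median profile; others are named where a count needed them. Calls used an authors' adjusted p under 0.05. Differences between genotypes were tested by a z test (variance the sum of squared standard errors, which is too large since WT is shared), Benjamini-Hochberg adjusted. Tables were put on 1 scale with the ratios of WT size factors, 1.26 to 1.27 for Smc3 over Npm1 and 1.29 to 1.31 for Double over Npm1, read from 102, 101 and 48 transcripts seen in a single WT library with a mean under 0.6. Levels were read from mean and fold. Neighbours follow the RefSeq order on GRCm38.p6. Python 3.11.15, pandas 2.3.3 and scipy 1.17.1 were used, and the z test was tested on simulated data. Alternatives were the median over transcripts, the median fold set to 0, a mean of at least 50, a threshold of 0.01 and removal of the shared WT variance.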

Additional observations from a re-analysis of the deposited data

How the results depend on the processing

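No alternative reversed a direction. For the 10 genes, 24 of 27 counts of calls stayed within 1.5 times, and 3 moved; those in the contrasts that chose the genes say nothing of stability. The count called in Npm1 cells was 2 in place of 1 when the median fold change was set to 0 and also 2 when genes with a mean under 50 were left out, as Dio2 was then called lower. The count for Double minus Smc3 was 1 in place of 0 when the WT share of the variance was removed, with Il18rap called lower in Double cells. Over all genes that setting called 1.43% in either direction, in place of 0.262%. No paired analysis was possible because the tables hold no values per library, and for the same reason no library could be left out and counts could not be normalized or tested anew. The groups differ in depth, sex and cell markers in the ways given with the results. Moderated folds understate differences of genes with few reads, and Xist shows that this can also occur at a high mean.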
